A study of Saccharomyces cerevisiae with 12 samples.

Results

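The deletion of GPA2 was compared with wild type in diploid Saccharomyces cerevisiae after a shift to SLAM, a low-ammonium medium used to induce pseudohyphal (filamentous) growth. The comparison held the 3 arrays of the strain MLY132 in SLAM and the 3 arrays of the strain MLY61 in SLAM, 6 of the 12 arrays of the series, and all 5656 genes that had a probe set of their own. MLY132 carried gpa2::G418 on both homologues (a drug-resistance insertion replacing the gene) and MLY61 was the wild type. Both strains were a/alpha diploids homozygous for ura3-52, so both groups lacked a working URA3 allele. Cultures in YPM, a rich maltose medium, had reached an OD600 of 1.0, and cells amounting to about 200 OD600 units were filtered and held in SLAM for 2 h at 30 °C. SLAM supplied 50 µM ammonium sulfate and 2% maltose over 0.17% yeast nitrogen base without amino acids. Each group stood for 3 cultures, per the design text, and each genotype was represented by 1 strain. The other 6 arrays were MLY132 and MLY61 in YPM before the shift, and they entered the model to share its estimate of the spread.

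Gpa2 is the alpha subunit of a G protein that acts with the nutrient receptor Gpr1. In its GTP-bound form it stimulates the adenylate cyclase Cyr1, and the cAMP formed binds Bcy1, the regulatory subunit of protein kinase A, and frees the kinase's catalytic subunits. In yeast, protein kinase A is known to promote ribosome production, to hold back stress genes and the storage of trehalose and glycogen, and, in diploids short of ammonium, to promote filamentous growth.

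The targeted gene was near background on every deletion array. GPA2 read 5.42, 5.14 and 5.49 on the log2 scale in deletion cells in SLAM, against 11.10, 10.999 and 10.56 in wild-type cells in SLAM. The groups lay far apart, with means of 5.35 ± 0.19 and 10.89 ± 0.29 (SD, n = 3 each), at least 46.4-fold lower in the deletion (log2 -5.53, SE 0.23, limma adjusted p = 7.23e-08). A log2 value of 5.60, which GPA2 did not exceed on any MLY132 array of either medium, was taken as background, and where the lower group averaged no more than it a difference is a lower bound. The 3 nearest measured genes on each side of GPA2 in the yeast gene table (SPC25, ISC1 and SBH2, then RPN3, SRB4 and PRO3) differed by log2 -0.48 to 0.49 and 0 of 6 passed. URA3 averaged 4.33 ± 0.14 in deletion and 4.77 ± 0.27 in wild-type cells (SD, n = 3 each), both under background, on the probe set used, while the array's URA3 control probe set read 5.89, 5.35 and 5.11 in deletion cells and 5.74, 5.82 and 5.97 in wild-type cells, above background on each wild-type array. The diploid label was checked with 14 genes that an a/alpha diploid keeps off, such as STE2, the alpha-factor receptor gene, and HO, the mating-type endonuclease gene. Of these, 7 averaged at or under background in deletion cells and 6 in wild-type cells, and 0 of 14 passed between strains. STE2 read 5.40, 4.80 and 5.18 in deletion cells and 5.31, 4.84 and 5.50 in wild-type cells. Some markers were well above background in both strains, such as MFA2, an a-factor gene, with 8.94, 8.10 and 9.19 in deletion cells and 8.50, 8.60 and 9.49 in wild-type cells.

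The libraries did not all sit together. On the first principal component of the 6 SLAM arrays, with 50.4% of the variance, deletion replicates 1, 2 and 3 scored 24.3, 8.77 and 31.3, and wild-type replicates 1, 2 and 3 scored -2.67, -57.8 and -3.81. Wild-type SLAM replicate 2 therefore stood apart from the other arrays. On the first principal component of all 12 arrays, with 59.4% of the variance, it scored -10.8, within the YPM range of -43.6 to -6.17. Wild-type SLAM replicates 1 and 3 scored 19.4 and 28.4 there, and deletion SLAM replicates 1, 2 and 3 scored 52.1, 42.8 and 54.9. The cause of this position was not tested. Values without wild-type SLAM replicate 2 are given where they move a list median or the difference of a passing gene by over 1.5 times. For other results they are given as stated. Spearman correlations of that array with the other SLAM arrays ran from 0.783 to 0.871, against 0.897 to 0.957 among the rest. The median SD of a gene was 0.341 in deletion cells in SLAM and 0.387 in wild-type cells in SLAM. In YPM it was smaller, 0.227 in deletion and 0.208 in wild-type cells. A spread pooled over all 12 arrays thus drew on the quieter YPM groups. This can make the standard errors and p-values of the SLAM differences too small.

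In SLAM, 159 of 5656 genes differed between the strains at an adjusted p below 0.05 (2.81%), of which 61 were higher in the deletion (1.08%) and 98 lower (1.73%). The difference was at least 2-fold for 53 of the higher and 90 of the lower genes, and the 3 values of each strain did not overlap for 157 of the 159. Over all genes the values did not overlap for 609 higher (10.8%) and 602 lower genes (10.6%), and the median difference was log2 -0.03. The difference was positive for 2690 and negative for 2966 of the 5656 genes. List counts below are to be read against these shares. In bulk cultures, fewer cells of a type and less RNA per cell cannot be told apart. With each array centred on its median the counts were 83 higher and 77 lower, and with quantile normalization 90 and 110. At an adjusted p below 0.01 only GPA2 and GTO1 passed in this fit. The count rested on the spread pooled over 12 arrays: fitted on the 6 SLAM arrays alone, GPA2 alone passed (852 genes had an unadjusted p below 0.05, and the next smallest adjusted p was 0.181). Without wild-type SLAM replicate 2, 20 genes passed (0.354%), 7 higher and 13 lower. Of the 61 higher genes 4 still passed without that array, and of the 97 lower genes other than GPA2 7 did. Among the genes named below, GPA2, GTO1, SNR67, FSH1, GAR1 and DIM1 were those that still passed, and the other named genes did not. The median ratio of the difference without it to the difference with it was 0.906 for the higher and 0.888 for the lower genes. The counts of higher and lower genes were 1 and 3 without deletion SLAM replicate 1, 28 and 52 without deletion SLAM replicate 2, and 55 and 149 without deletion SLAM replicate 3. They were 140 and 51 without wild-type SLAM replicate 1 and 83 and 302 without wild-type SLAM replicate 3. Leaving out a YPM array also moved them, to 6 and 8, 9 and 26, and 89 and 132 without deletion YPM replicate 1, 2 and 3, and to 22 and 29, 3 and 9, and 3 and 7 without wild-type YPM replicate 1, 2 and 3. Which single genes passed thus depended on which arrays were fitted.

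**Figure D1:**
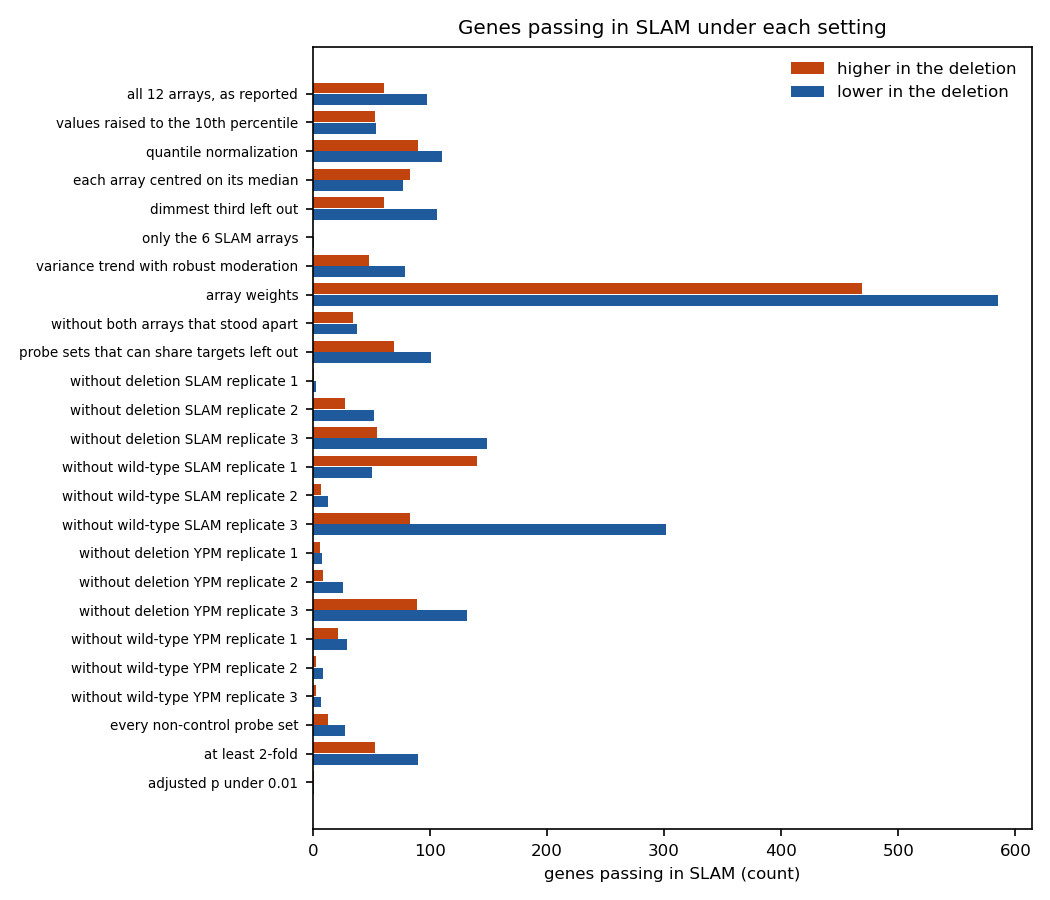
Number of genes (horizontal axis) higher (upper bar of each pair) and lower (lower bar) in the gpa2 deletion than in wild type in SLAM at an adjusted p below 0.05, under the settings tried. The pair of 61 and 98 at the top is the fit on all 12 arrays, the 6 SLAM arrays alone gave 0 and 1, and array weights gave 469 and 585.

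Genes of stress, redox and carbon storage functions were among the largest rises. PHM7, a membrane protein gene, read 10.55, 9.53 and 10.87 in deletion cells, against 8.79, 5.33 and 7.30 in wild-type cells. The deletion arrays were all above the wild-type arrays, the lowest of which was replicate 2, and the difference was 9.04-fold (log2 3.18, SE 0.73, adjusted p = 0.0432; log2 2.27 without wild-type SLAM replicate 2). GTO1, an omega-class glutathione transferase gene, read 9.44, 9.999 and 8.78 in deletion cells and 7.18, 6.45 and 6.74 in wild-type cells. All wild-type values lay close together and well under the deletion values, a difference of 6.11-fold (log2 2.61, SE 0.29, adjusted p = 0.00344; log2 2.44 and adjusted p = 0.01435 without wild-type SLAM replicate 2). GTT1, another glutathione transferase gene, rose by 1.12 (log2, SE 0.21, adjusted p = 0.0311), and these were 2 of 18 glutathione genes that passed, both higher (list median log2 0.53). Without wild-type SLAM replicate 2 the list median was 0.25 and 1 member passed.

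SNR67, a box C/D small nucleolar RNA gene, read 12.55, 11.92 and 11.94 in deletion cells and 9.67, 10.36 and 9.31 in wild-type cells. It rose 5.13-fold (log2 2.36, SE 0.35, adjusted p = 0.0201), and without wild-type SLAM replicate 2 the difference was log2 2.65 with an adjusted p of 0.0155. It was the 1 gene that passed among 61 small nuclear and nucleolar RNA genes, a list added after the values were seen, whose median difference was log2 0.03 (0.01 without wild-type SLAM replicate 2). RTN2, a reticulon gene of the endoplasmic reticulum, read 9.95, 9.57 and 10.11 in deletion cells and 8.36, 7.20 and 7.04 in wild-type cells, a rise of 5.07-fold (log2 2.34, SE 0.37, adjusted p = 0.0201).

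The other genes among the 20 largest rises were GIP2, a putative regulatory subunit of the protein phosphatase Glc7 (log2 2.39), ALD3, a cytosolic aldehyde dehydrogenase (2.37), GND2, a 6-phosphogluconate dehydrogenase isoform (2.29), PNS1 (2.07, and 1.38 without wild-type SLAM replicate 2), RTC3 (1.87), TPS2 (1.83) and SHH4 (1.82). AMS1, the vacuolar alpha-mannosidase gene, rose by 1.78 on the log2 scale, YDL124W by 1.73, PRR2, a protein kinase gene, by 1.70 and XBP1, a stress-induced transcriptional repressor gene, by 1.68. CAT8, an activator of gluconeogenic genes, rose by 1.62, GAC1 by 1.61, YJL163C by 1.61, OM45, a mitochondrial outer membrane protein gene, by 1.61 and SYM1 by 1.60. These 20 genes were chosen among passing genes whose 3 deletion values all lay above the 3 wild-type values, so their separation follows from the choice. Their standard errors ran from 0.29 for GTO1 to 0.73 for PHM7.

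**Figure D2:**
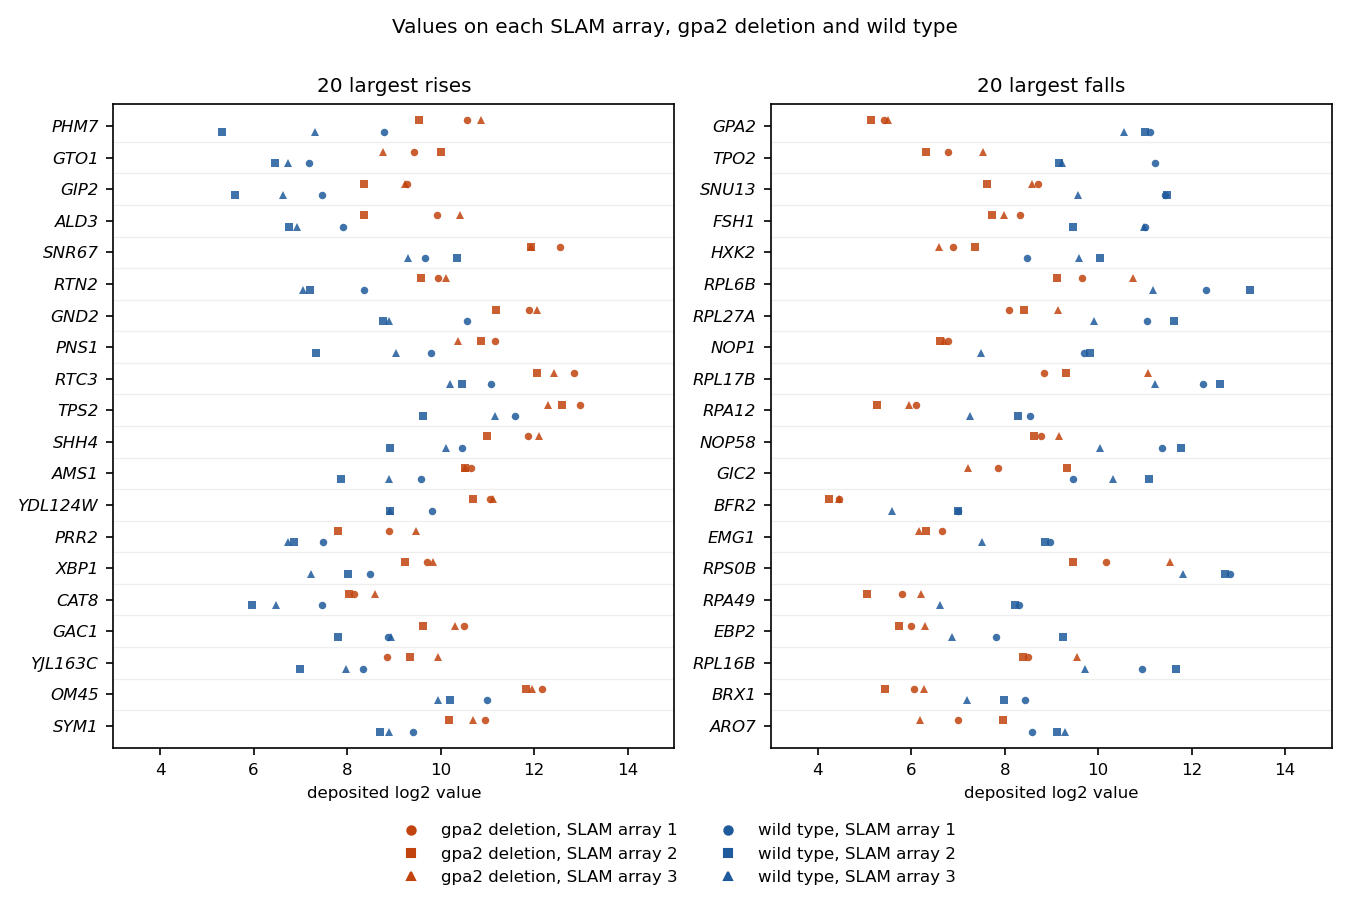
Deposited log2 value (horizontal axis) on each SLAM array for the 20 largest rises (left) and 20 largest falls (right) among genes passing in SLAM with no overlap; each row has the 3 deletion arrays above the 3 wild-type arrays. GPA2 read 5.14 to 5.49 in deletion cells and 10.56 to 11.10 in wild-type cells, and for PHM7 the wild-type arrays spread from 5.33 to 8.79.

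The largest falls after GPA2 were dominated in number by genes of ribosome production. TPO2, a polyamine transporter gene, fell by 2.99 (log2, SE 0.65, adjusted p = 0.0397), read by probes that a related gene may also bind. FSH1, a serine hydrolase gene, read 8.32, 7.73 and 7.99 in deletion cells and 10.997, 9.47 and 10.98 in wild-type cells. It was 5.55-fold lower in the deletion (log2 -2.47, SE 0.38, adjusted p = 0.0201), and without wild-type SLAM replicate 2, the lowest of its wild-type values, log2 -2.98 with an adjusted p of 0.000884. GIC2, an effector of the polarity GTPase Cdc42, read 7.85, 9.32 and 7.21 in deletion cells and 9.46, 11.09 and 10.31 in wild-type cells, a fall of 4.46-fold (log2 -2.16, SE 0.52, adjusted p = 0.049). Of the 20 largest falls, 14 encode ribosomal proteins, ribosome assembly proteins or RNA polymerase I subunits, and they are given below by role.

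Genes of the cytosolic ribosome were lower in the deletion as a group. Of 80 measured genes for cytosolic ribosomal proteins, 80 had a negative difference, 19 passed as lower, 0 passed as higher, and the values did not overlap in 39, with a list median of log2 -1.47. Of all 5656 genes, 2966 had a negative difference, 1.73% passed as lower and 10.6% lay lower without overlap. The large-subunit list (14 of 47 lower) had a median of -1.48 and the small-subunit list (5 of 33 lower) one of -1.35, and without wild-type SLAM replicate 2 the medians were -1.21 and -1.25 with 0 members passing in either list. RPL6B, a large-subunit protein gene, read 9.65, 9.12 and 10.74 in deletion cells and 12.31, 13.24 and 11.17 in wild-type cells. The wild-type array nearest to the deletion arrays was replicate 3, and the gene was 5.299-fold lower in the deletion (log2 -2.41, SE 0.47, adjusted p = 0.035). RPS0B, a small-subunit protein gene, read 10.16, 9.47 and 11.54 in deletion cells and 12.83, 12.72 and 11.82 in wild-type cells, 4.19-fold lower in the deletion (log2 -2.07, SE 0.43, adjusted p = 0.0381). The other large-subunit genes with the largest falls were RPL27A (log2 -2.31), RPL17B (-2.28) and RPL16B (-1.96), the first and second with probes that may bind other genes. Many ribosomal protein genes exist as near-identical pairs, and 14 of the 47 large-subunit and 16 of the 33 small-subunit genes had probes that may bind more than 1 gene.

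The level of these genes differed between cultures of 1 strain as well. Relative to the mean of wild-type cells in YPM, the large-subunit list had a median log2 level of -3.17, -3.41 and -1.93 in deletion replicates 1, 2 and 3 in SLAM. The wild-type replicates 1, 2 and 3 in SLAM stood at -1.12, -0.69 and -1.89. Deletion replicate 3 and wild-type replicate 3 thus nearly met, while the other deletion arrays lay far below the other wild-type arrays. The small-subunit list had the same order, with -3.13, -3.27 and -1.86 in deletion cells and -1.13, -0.72 and -1.76 in wild-type cells.

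Ribosome assembly genes were lower too. Of 148 measured genes in the lists for the small-subunit processome with the small nucleolar RNA-protein particles and for large-subunit assembly, 143 had a negative difference, 21 passed as lower, 0 passed as higher, and the values did not overlap in 71 (median log2 -1.05). The shares over all genes were 1.73% passing as lower and 10.6% lower without overlap. The processome list had 14 of 71 lower with a median of -1.06, and the large-subunit assembly list 7 of 77 with a median of -1.02. Without wild-type SLAM replicate 2 the medians were -1.05 and -0.92, and 2 and 0 members passed. Relative to wild-type YPM cells, the processome list stood at -2.23, -2.61 and -1.72 in deletion replicates 1, 2 and 3 in SLAM. Wild-type replicates 1, 2 and 3 in SLAM stood at -0.67, -1.01 and -1.75, so this list median overlapped between the groups. The large-subunit assembly list median did not overlap, with -1.86 in deletion replicate 3 and -1.72 in wild-type replicate 3.

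Core proteins of both classes of modification particle were among the ribosome assembly genes that passed. NOP1, the box C/D methyltransferase fibrillarin, read 6.79, 6.61 and 6.70 in deletion cells and 9.70, 9.82 and 7.49 in wild-type cells. The deletion arrays were tightly grouped and wild-type replicate 3 was the nearest to them, a fall of 4.92-fold (log2 -2.30, SE 0.49, adjusted p = 0.0391). SNU13, a box C/D and U4 RNA-binding protein gene, fell by 2.51 (log2, SE 0.47) and NOP58, another box C/D core protein gene whose probes may bind other transcripts, by 2.20 (SE 0.36). GAR1, a box H/ACA particle gene, read 8.43, 7.79 and 8.83 in deletion cells and 10.23, 10.78 and 9.78 in wild-type cells, a fall of 3.765-fold (log2 -1.91, SE 0.30, adjusted p = 0.0201; -1.65 and 0.0375 without wild-type SLAM replicate 2). DIM1, the dimethylase of small-subunit rRNA, read 6.55, 6.96 and 6.38 in deletion cells and 8.55, 8.31 and 7.92 in wild-type cells. Its groups were well separated (log2 -1.63, SE 0.23, adjusted p = 0.0201; -1.61 and 0.0323 without wild-type SLAM replicate 2).

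EMG1, the methyltransferase of the small-subunit rRNA pseudouridine site, fell by 2.07 (log2, SE 0.40), and BFR2, a processome protein gene, by at least 2.15 (SE 0.37), its deletion values of 4.46, 4.24 and 4.46 being at background. On the large-subunit side BRX1 read 6.05, 5.45 and 6.28 in deletion cells and 8.44, 7.98 and 7.19 in wild-type cells, a fall of 3.845-fold (log2 -1.94, SE 0.34, adjusted p = 0.0311). EBP2 fell by 1.96 (log2, SE 0.47), NOG1, a GTPase of pre-60S particles, by 1.88 (SE 0.43) and NIP7 by at least 1.84 (SE 0.41).

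Genes of the polymerases that transcribe rRNA and tRNA passed in smaller numbers. Of 16 genes in the RNA polymerase I list 3 passed, each lower, against 1.73% of all genes (list median log2 -0.64): RPA12 (log2 -2.26, SE 0.42), RPA49 (-2.02, SE 0.44) and RPA135, the second largest subunit (-1.50, SE 0.36). RPA12 read 6.09, 5.28 and 5.94 in deletion cells and 8.55, 8.29 and 7.26 in wild-type cells, with no overlap. Of 27 genes in the RNA polymerase III list 2 passed, both lower (median -0.67), namely RPC40 (log2 -1.46, SE 0.30) and RPC19 (-1.60, SE 0.34). These 2 are subunits of both polymerases but were counted in the polymerase III list only, where no other gene passed. None of these passed without wild-type SLAM replicate 2, where the list medians were -0.46 and -0.66. Relative to wild-type YPM cells, the RNA polymerase I list median overlapped between the groups in SLAM. Deletion replicates 1 and 2 stood at -0.95 and -0.97 and wild-type replicate 3 at -1.02. The RNA polymerase III list median did not overlap.

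In translation itself, 3 of 21 cytosolic tRNA synthetase genes passed, all lower, and 21 of 21 had a negative difference (median log2 -0.71, and -0.37 without wild-type SLAM replicate 2). Among all genes 1.73% passed as lower. WRS1, for tryptophan, read 7.32, 7.73 and 7.32 in deletion cells and 9.20, 10.11 and 8.66 in wild-type cells, a fall of 3.64-fold (log2 -1.86, SE 0.35, adjusted p = 0.0311). FRS1, for phenylalanine, fell by 1.64 (log2, SE 0.34) and MES1, for methionine, by 1.29 (SE 0.26). Relative to wild-type YPM cells, the synthetase list median overlapped in SLAM, with -1.34 in deletion replicate 2 and -1.46 in wild-type replicate 3. Of 41 translation factor genes 0 passed (median -0.63), and the values lay lower without overlap in 14, against 10.6% of all genes. Of 71 mitochondrial ribosomal protein genes 0 passed, with a median of -0.28 in SLAM and -0.38 in YPM. Without wild-type SLAM replicate 2 the SLAM median was -0.06, with 29 of 71 positive against 14 of 71 with all arrays.

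**Figure D3:**
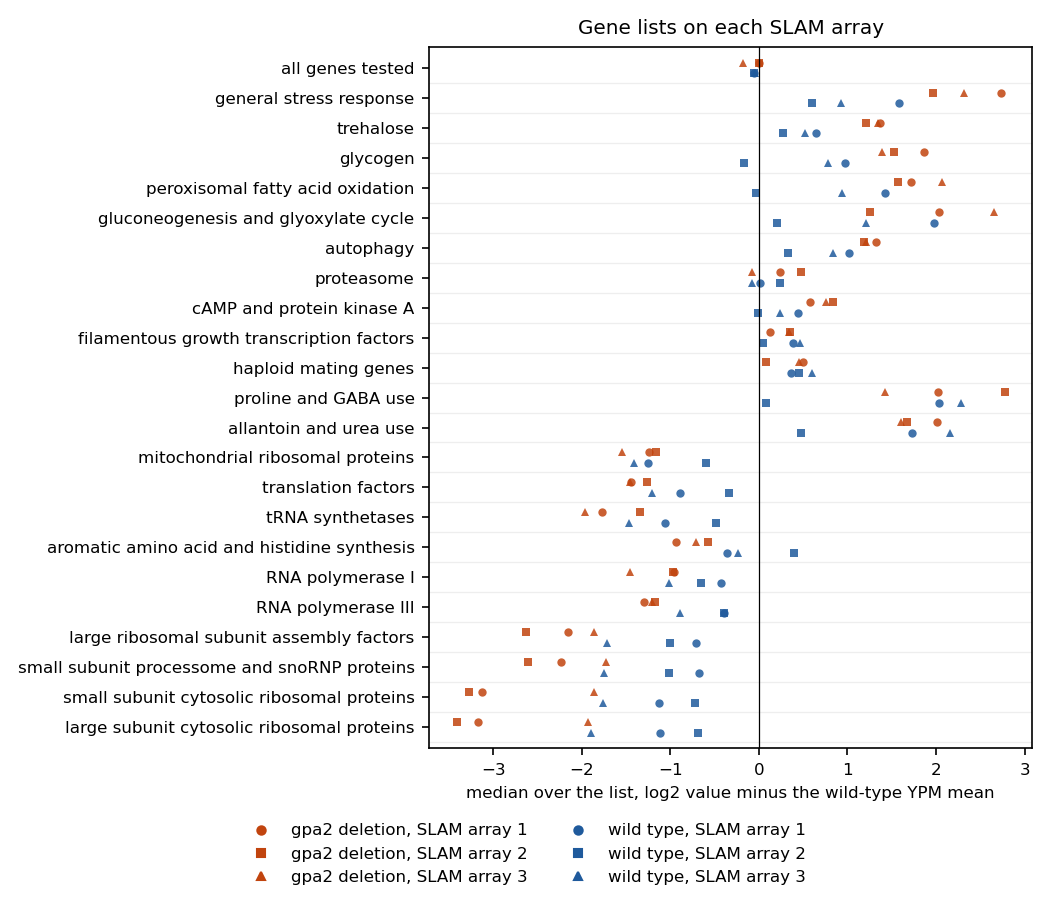
Median over each gene list of the log2 value minus the mean of wild-type cells in YPM (horizontal axis), on each SLAM array, with the 3 deletion arrays above the 3 wild-type arrays in each row and all genes in the first row. For the large-subunit ribosomal proteins the deletion arrays stood at -3.17, -3.41 and -1.93 and the wild-type arrays at -1.12, -0.69 and -1.89; for general stress genes the deletion arrays lay above all wild-type arrays.

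General stress genes were higher in the deletion. Of all 5656 genes, 2690 had a positive difference, 1.08% passed as higher and 10.8% lay higher without overlap. In a list of 33 general stress genes, which yeast induces under many stresses through Msn2 and Msn4, 32 had a positive difference, 6 passed as higher, 0 as lower, and the values did not overlap in 24 (median log2 1.21). The median level above wild-type YPM cells was log2 2.73, 1.96 and 2.32 in deletion replicates 1, 2 and 3 in SLAM and 1.58, 0.60 and 0.93 in wild-type replicates 1, 2 and 3 in SLAM, so the list median did not overlap between the groups. Without wild-type SLAM replicate 2 the median difference was 0.93, with 31 of 33 positive and 0 passing. The list median in YPM was 0.93. The 6 genes were RTN2, RTC3, ALD3, XBP1, OM45 and MSC1 (the last log2 1.52, SE 0.34, adjusted p = 0.0411). RTC3 read 12.84, 12.06 and 12.42 in deletion cells and 11.09, 10.45 and 10.19 in wild-type cells, 3.65-fold higher in the deletion with no overlap.

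Genes of the reserve carbohydrates had differences of the same sign as the stress genes. All 10 measured trehalose genes had a positive difference, 2 passed and the values did not overlap in 7 (median log2 0.74, and 0.49 without wild-type SLAM replicate 2). For all genes the shares were 1.08% passing as higher and 10.8% higher without overlap. TSL1, a large subunit of the trehalose synthase complex, read 11.99, 11.78 and 11.81 in deletion cells and 11.09, 10.71 and 10.92 in wild-type cells. Both groups were tight, and it rose 1.93-fold (log2 0.95, SE 0.19, adjusted p = 0.0373). TPS2, the trehalose-6-phosphate phosphatase gene, read 12.98, 12.59 and 12.30 in deletion cells and 11.59, 9.62 and 11.16 in wild-type cells, a rise of 3.57-fold (log2 1.83, SE 0.44, adjusted p = 0.049), or log2 1.25 without wild-type SLAM replicate 2, the lowest array. The genes for breakdown had differences of the same sign, with log2 1.45 (SE 0.38, adjusted p = 0.0605) for the acid trehalase ATH1 and 0.70 (SE 0.23, adjusted p = 0.101) for the neutral trehalase NTH1.

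Of 16 glycogen genes, 15 had a positive difference and 3 passed, all higher, against 1.08% of all genes (median log2 0.88, and 0.75 without wild-type SLAM replicate 2). GAC1, which directs the phosphatase Glc7 to glycogen synthase, read 10.51, 9.63 and 10.31 in deletion cells and 8.88, 7.81 and 8.93 in wild-type cells, a rise of 3.055-fold (log2 1.61, SE 0.38, adjusted p = 0.048). GDB1, the debranching enzyme gene, rose by 1.35 (log2, SE 0.32, adjusted p = 0.0475) and GLG1, a glycogenin gene that primes synthesis, by 1.31 (SE 0.29, adjusted p = 0.0399). The major synthase gene GSY2, named here for its role after its values were seen, differed by log2 0.96 (SE 0.27, adjusted p = 0.0658) with no overlap.

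**Figure D4:**
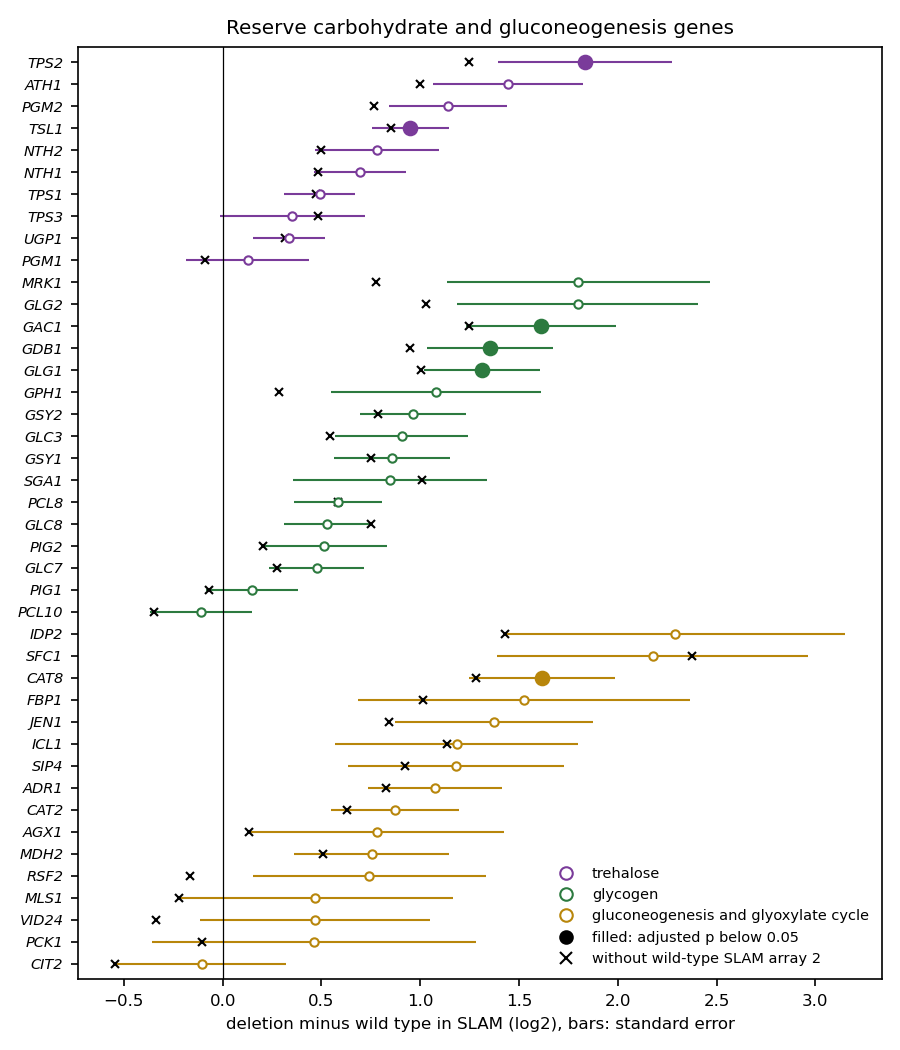
Difference of deletion minus wild type in SLAM (horizontal axis, log2, bars give the standard error) for all measured trehalose, glycogen and gluconeogenesis genes, with filled symbols for an adjusted p below 0.05 and crosses for the difference without wild-type SLAM replicate 2. TPS2 stood at 1.83 with all arrays and 1.25 without that array, and TSL1 at 0.95 and 0.85.

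Carbon genes used when sugar runs short had mostly positive differences. Of 16 genes of gluconeogenesis and the glyoxylate cycle 15 had a positive difference and CAT8 alone passed (median log2 0.97; 0.73 with 11 positive without wild-type SLAM replicate 2). The values lay higher without overlap in 5 of the 16. Relative to wild-type YPM cells, the list median overlapped between the groups in SLAM. It was 2.04, 1.25 and 2.66 in deletion replicates 1, 2 and 3 and 1.98, 0.20 and 1.21 in wild-type replicates 1, 2 and 3. CAT8 read 8.15, 8.03 and 8.59 in deletion cells and 7.47, 5.97 and 6.48 in wild-type cells (SE 0.37, adjusted p = 0.0416). Of 18 peroxisomal fatty acid oxidation genes 17 had a positive difference and 0 passed (median 0.99, and 0.51 without wild-type SLAM replicate 2). The values lay higher without overlap in 10 of them, against 10.8% of all genes. The median level of this list did not overlap, with 1.57 in deletion replicate 2 and 1.42 in wild-type replicate 1. The members with the smallest p were FAA2, an acyl-CoA synthetase gene (log2 1.47, adjusted p = 0.054), the multifunctional enzyme gene FOX2 (2.06, adjusted p = 0.0551) and the transporter gene PXA1 (1.88, adjusted p = 0.0561).

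Of 4 hexokinase genes 1 passed, and it was lower in the deletion. HXK2, the main hexokinase of fermenting cells, read 6.88, 7.37 and 6.60 in deletion cells and 8.47, 10.04 and 9.58 in wild-type cells. It was 5.32-fold lower in the deletion (log2 -2.41, SE 0.52, adjusted p = 0.0391; -2.07 without wild-type SLAM replicate 2). Its relatives had positive differences that did not pass, log2 0.73 (SE 0.26, adjusted p = 0.114) for the glucokinase gene GLK1, 0.47 (SE 0.29, adjusted p = 0.373) for HXK1 and 0.27 (SE 0.26, adjusted p = 0.578) for EMI2.

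Of the 7 genes of the G protein module itself, 2 passed, GPA2 and RGS2, the gene of the GTPase-activating protein that turns Gpa2 off. RGS2 read 5.35, 5.49 and 5.25 in deletion cells, at background, and 6.98, 6.95 and 6.15 in wild-type cells, at least 2.51-fold lower in the deletion (log2 -1.33, SE 0.25, adjusted p = 0.0311). The receptor gene GPR1 read 9.36, 9.47 and 9.09 in deletion cells and 9.43, 8.08 and 9.54 in wild-type cells, overlapping, with a difference of log2 0.29 (SE 0.33, adjusted p = 0.655). The differences of the kelch-protein genes were log2 0.87 for GPB2 (SE 0.36, adjusted p = 0.176) and -0.07 for GPB1 (SE 0.23, adjusted p = 0.902), and that of ASC1 was -1.31 (SE 0.36, adjusted p = 0.0655).

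Downstream, 2 of 20 genes of the cAMP and protein kinase A list passed, both higher (list median log2 0.42). Without wild-type SLAM replicate 2 the list median was 0.22 and 0 members passed. BCY1, the regulatory subunit that holds the kinase inactive, read 11.64, 11.26 and 11.63 in deletion cells and 10.85, 10.53 and 10.56 in wild-type cells, a rise of 1.81-fold (log2 0.86, SE 0.20, adjusted p = 0.0464). GIS1, a transcription factor of nutrient depletion, read 8.40, 8.12 and 8.12 in deletion cells and 7.20, 7.06 and 6.70 in wild-type cells, a rise of 2.34-fold (log2 1.23, SE 0.24, adjusted p = 0.0333). Both had small spreads, and their differences were 0.80 and 1.26 without wild-type SLAM replicate 2. TPK2 and TPK3, which encode catalytic subunits and are named for that role, did not pass: TPK2 differed by log2 0.67 (SE 0.22, adjusted p = 0.103) and TPK3 by -0.78 (SE 0.31, adjusted p = 0.16). The high-affinity phosphodiesterase gene PDE2 differed by -0.83 (SE 0.26, adjusted p = 0.0898).

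Regulators of filamentous growth changed singly. Of 17 genes in that list 1 was higher and 1 lower (median log2 0.02, and -0.04 with 0 passing without wild-type SLAM replicate 2). PHD1, a transcriptional activator of pseudohyphal growth, read 7.71, 7.48 and 6.84 in deletion cells and 8.82, 9.28 and 9.18 in wild-type cells, with no overlap. It was 3.37-fold lower in the deletion (log2 -1.75, SE 0.34, adjusted p = 0.0333; -1.66 without wild-type SLAM replicate 2). MGA1, a heat shock factor-like gene known to induce pseudohyphal growth when overexpressed, read 8.58, 7.93 and 7.61 in deletion cells and 6.84, 6.38 and 6.28 in wild-type cells, 2.92-fold higher in the deletion (log2 1.54, SE 0.33, adjusted p = 0.0391). FLO11, the flocculin gene needed for filaments, read 13.45, 13.65 and 12.75 in deletion cells and 13.46, 13.11 and 13.52 in wild-type cells. These overlapped, and the difference was log2 -0.08 (SE 0.27, adjusted p = 0.898) near the top of the scale. Of 19 genes of the filamentous MAP kinase pathway 0 passed, with a median of -0.03 (-0.10 without wild-type SLAM replicate 2) and non-overlapping values in 0.

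Biosynthetic genes were lower in part, with passing members in some lists only. Over all genes 2.81% passed. Of 18 pyrimidine genes 3 passed as lower (median log2 -0.48, and -0.35 without wild-type SLAM replicate 2): URA7, a CTP synthase gene (log2 -1.78, SE 0.33), URA6, the uridylate kinase gene (-1.70, SE 0.32), and FUR1, the uracil phosphoribosyltransferase gene of salvage (-1.81, SE 0.36). GUA1, the GMP synthase gene, read 8.60, 8.07 and 8.87 in deletion cells and 10.23, 11.15 and 9.75 in wild-type cells, and it was the 1 of 18 GTP-branch and purine salvage genes that passed (log2 -1.87, SE 0.33, adjusted p = 0.0311). Of 21 genes of aromatic amino acid and histidine synthesis, 2 passed as lower (median -0.74). The values of 12 lay lower without overlap, against 10.6% of all genes. ARO7, the chorismate mutase gene, fell by 1.94 (log2, SE 0.39) and HIS7, a histidine synthesis gene, by 1.29 (SE 0.28). THR1, the homoserine kinase gene, fell by 0.80 (SE 0.19), the 1 of 17 aspartate-family genes that passed (median -0.55). In other synthesis lists 0 passed, namely arginine (8 genes), lysine (10), branched-chain amino acids (13) and de novo purines (16). The same held for sulfate assimilation (10 genes) and methionine (19). Without wild-type SLAM replicate 2 the arginine list median went from -0.34 to -0.53. The medians of 3 lists changed sign, from -0.21 to 0.35 for sulfate, -0.25 to 0.06 for methionine and 0.08 to -0.09 for branched-chain amino acids.

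Values of the nitrogen-use lists differed with and without wild-type SLAM replicate 2. GDH1, the NADP-dependent glutamate dehydrogenase gene that fixes ammonium, read 9.74, 11.13 and 8.92 in deletion cells and 11.35, 12.06 and 11.77 in wild-type cells, 3.47-fold lower in the deletion (log2 -1.79, SE 0.43, adjusted p = 0.0493). The list of glutamate and glutamine synthesis also held ASP1, a cytosolic asparaginase gene (log2 -1.26, SE 0.30, adjusted p = 0.048). GDH1 and ASP1 were the 2 of 9 genes in this list that passed, both lower, while the list median had the opposite sign, log2 0.72. Without wild-type SLAM replicate 2 the list median was 0.03 with 0 passing. UGA1, the GABA transaminase gene, read 10.39, 11.12 and 9.72 in deletion cells and 9.18, 8.40 and 9.16 in wild-type cells, 2.82-fold higher (log2 1.49, SE 0.33, adjusted p = 0.0397). It was the 1 of 8 proline and GABA genes that passed, and the list median of log2 1.00 fell to 0.18 without wild-type SLAM replicate 2. PUT4, the proline permease gene, shows this array's share: it read 12.69, 13.62 and 12.47 in deletion cells and 12.73, 9.20 and 13.22 in wild-type cells, a difference of 1.21 with all arrays and -0.05 without replicate 2. For the 12 allantoin and urea genes 0 passed, with a median of 0.39 that turned to -0.36 without that array. Of 7 ammonium permease genes 0 passed, and MEP2, the high-affinity permease that also signals filamentous growth, read 12.37, 12.40 and 12.03 in deletion cells and 11.92, 10.10 and 12.60 in wild-type cells.

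The YPM arrays gave no values to the SLAM differences, but they shared the estimate of the spread and so affected which genes passed in SLAM. Between the strains in YPM only GPA2 passed (0.0177% of genes). The genes below were chosen for their difference in SLAM, which favours large values there, so the sizes in the 2 media are given side by side with no comparison. Of the 61 genes higher in the deletion in SLAM, 58 had a positive difference in YPM, against 39.4% of all genes, with a median of log2 0.48 in YPM and 1.28 in SLAM. Of the 97 lower genes other than GPA2, 90 had a negative difference in YPM, against 60.6% of all genes, with medians of -0.38 in YPM and -1.60 in SLAM. Deletion YPM replicate 3 stood apart in its group, and without it the counts were 55 and 80, with YPM medians of 0.40 and -0.22. Across 5655 genes the differences in SLAM and in YPM had a Pearson correlation of 0.57 (0.35 without that array), given as a description because genes are not independent replicates.

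Whether the strain difference itself changed with the medium was tested with the interaction of strain and medium. It passed for 0 of 5656 genes in the limma fit (0%; 228 genes had an unadjusted p below 0.05, and limma with array weights passed 230), so in the unweighted fit no gene was shown to differ between strains in SLAM beyond its difference in YPM. The smallest adjusted p was 0.173, for GTO1. GTO1 differed by log2 2.61 in SLAM and -0.07 in YPM, an interaction of 2.69. TPO2 differed by -2.99 in SLAM and 0.06 in YPM, and YDL124W by 1.73 and -0.39. RTN2 (2.34 and 1.15), ALD3 (2.37 and 1.61), SNR67 (2.36 and 1.61) and HXK2 (-2.41 and -1.16) had the same sign in both media.

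**Figure D5:**
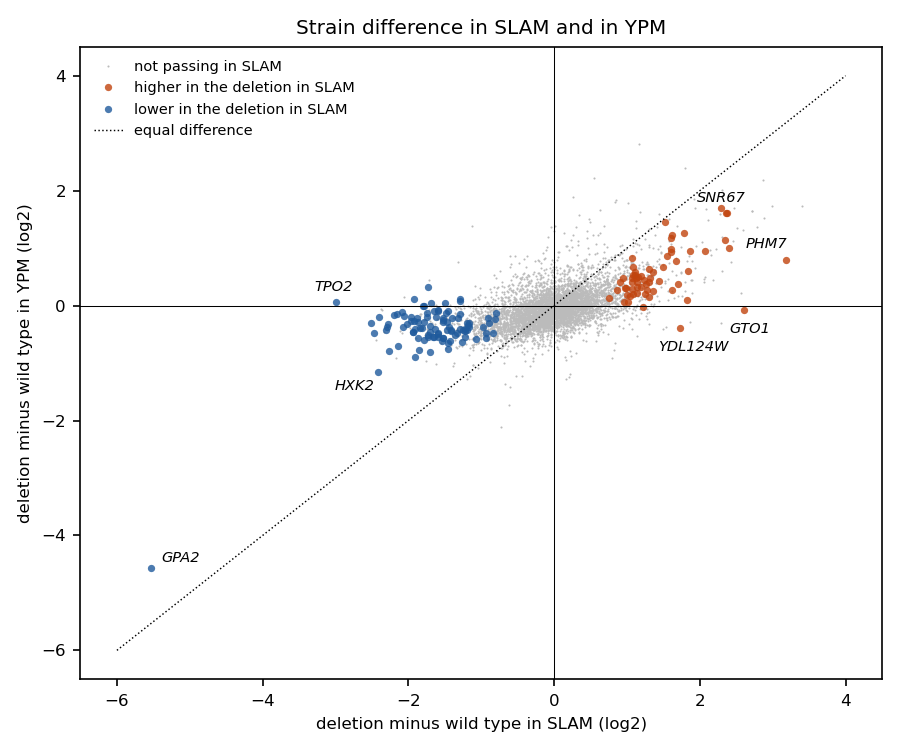
Deletion minus wild type in SLAM (horizontal axis) and in YPM (vertical axis), both log2, for all 5656 genes, with genes passing in SLAM coloured and the dotted line marking equal differences. Of the 61 genes higher in SLAM, 58 lie above 0 in YPM, GTO1 lies near 0 in YPM, and GPA2 is the point at the lower left.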

How the data were processed

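RNA was hybridised to Affymetrix Yeast S98 arrays. The deposited table held log2 values; of GCOS 1.2, MAS5 and RMA, all named in the submitters' processing notes, the one that made them is not given in the sources used here, and no detection calls were used here. Array medians lay between 7.33 and 7.50, no further normalization was applied, and 3 arrays a group limit the precision. Of 9335 probe sets, 60 controls, 328 with several symbols and 2443 with none were left out of the gene tests; genes with several probe sets (315) kept the one with the highest mean, leaving 5656 genes, 300 of which have probes that may bind several genes.

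A limma 3.58.1 model (R 4.3.3) with 4 group means over all 12 arrays and empirical Bayes moderation (8 residual and 4.11 prior degrees of freedom) gave two-sided p-values, adjusted by Benjamini-Hochberg over all genes, with a threshold of 0.05; the median standard error was 0.287. The procedure was tested on simulated data with independent noise, the same spread in all groups and no array standing apart. That test therefore did not cover the unequal spreads and outlying arrays of these data. Differences are deletion minus wild type, with standard errors. Members and the 63 gene lists were chosen with earlier results of these data known. Named genes were GPA2, its neighbours, FLO11, URA3, the 20 largest non-overlapping rises and falls that passed, up to 6 passing members per list and direction, any member of lists of up to 15, and the 3 smallest p of lists with none; others are marked. Replicate numbers follow deposit order and pair nothing. Alternatives raised low values to the 10th percentile (log2 5.74), normalized by quantiles, centred arrays on their medians, kept the 3770 brightest genes, left out probe sets with shared targets, took all probe sets, fitted the SLAM arrays only, and used a variance trend, array weights and stricter thresholds. Each array, and both arrays that stood apart, were also left out.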

Additional observations from a re-analysis of the deposited data

Results flagged for a closer look

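A signal was found in probe sets that name no single gene and were left out of the gene tests. With every non-control probe set fitted together, 6 of these 2771 passed in SLAM, 2 higher and 4 lower in the deletion. Probe set 3982_at, for which the annotation lists no gene, read 13.56, 13.37 and 13.55 in deletion cells in SLAM and 3.63, 4.59 and 3.63 in wild-type cells in SLAM (log2 9.54, SE 0.29, adjusted p = 2.71e-09). In YPM it read 13.13, 13.22 and 13.38 in deletion cells and 4.30, 5.01 and 5.08 in wild-type cells. It was near the top of the scale on every deletion array and under background on every wild-type array, so its separation of the strains was complete, as was that of GPA2 in the opposite direction. What the probe set reads was not tested. The other higher one, 10720_at, also without a listed gene, read 6.07, 5.74 and 6.59 in deletion cells and 5.08, 4.89 and 4.70, under background, in wild-type cells, a difference of at least log2 1.24 (SE 0.24, adjusted p = 0.0487). Of the 4 lower, 2 read RPL12A and RPL12B together (log2 -2.07 and -2.24), 1 read RPL11A and RPL11B together (-1.66), all pairs of near-identical ribosomal protein genes, and 1 read SAM4 and YMR321C together (-2.02).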

How the results depend on the processing

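Of the named genes that passed, 74 were followed through up to 22 alternatives; GPA2 alone passed in each. Nearly all were chosen with groups that do not overlap, which fixes their sign when 1 array is left out. Counts of higher and lower genes were 61 and 98. They were 13 and 28 with every probe set, 34 and 38 without both arrays that stood apart, 0 and 1 on the 6 SLAM arrays, 469 and 585 with array weights (whose estimation gave a convergence warning) and 1 and 1 at an adjusted p below 0.01. Centring gave 83 and 77, and a floor at the 10th percentile 54 lower. Leaving out 1 array gave 1 to 140 higher and 3 to 302 lower. For the interaction, 0 genes passed in the main analysis, 1 after quantile normalization, 230 with array weights, 2 without both arrays that stood apart and 0 to 2 with 1 array left out. The cause of these shifts was not tested. Signs turned for these named genes, none of which had passed: FLO11 (0.19 without deletion SLAM replicate 3), GPB1 (0.036 after quantile normalization, 0.0576 without both arrays), GPR1 (-0.0263 with array weights, -0.18 without both arrays), PUT4 (1.21 with all arrays, -0.0515 without both arrays) and STE2 (0.0315 after quantile normalization, 0.0041 with array weights). The median of the filamentous growth factors turned too (-0.0301 with array weights, -0.0361 without both arrays). Without wild-type SLAM replicate 2 other list medians turned, including those of allantoin and urea (0.39 to -0.36), sulfate assimilation (-0.21 to 0.35), methionine (-0.25 to 0.06) and branched-chain amino acids (0.08 to -0.09). Some lists not described here turned as well. With 1 array left out, FLO11 ran from -0.26 to 0.19, GPB1 from -0.26 to 0.13, GPR1 from -0.18 to 0.55, PUT4 from -0.0515 to 1.96, STE2 from -0.28 to 0.0761, and the filamentous growth factor median from -0.0361 to 0.192. No paired analysis was possible because the labels give the groups no shared replicate numbers.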

Other observations

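The genes here were chosen after their values were seen. PUS7, a pseudouridine synthase gene, read 7.14, 7.19 and 7.08 in deletion cells and 8.88, 8.59 and 8.01 in wild-type cells (log2 -1.36, SE 0.24, adjusted p = 0.0311).

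Besides GAC1 and GIP2, another gene for a regulator of the phosphatase Glc7 passed as higher: SDS22 read 10.08, 9.86 and 9.81 in deletion cells and 8.95, 9.04 and 8.79 in wild-type cells (log2 0.99, SE 0.23, adjusted p = 0.048). Genes for Glc7 regulators were not counted as a list, and 1.08% of all genes passed as higher. YHB1, the flavohaemoglobin gene that detoxifies nitric oxide, fell by 1.93 on the log2 scale on the probe set used, while its other probe sets gave -1.72, -1.55 and 0.12, the last on the dimmest set. SHB17, the sedoheptulose bisphosphatase gene, read 8.34, 8.99 and 8.30 in deletion cells and 9.58, 10.54 and 10.28 in wild-type cells (log2 -1.59, SE 0.29, adjusted p = 0.0311). RPN1, the only one of 34 proteasome genes that passed, read 10.25, 10.57 and 10.09 in deletion cells and 9.54, 9.31 and 9.20 in wild-type cells (log2 0.96, adjusted p = 0.0425).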
